A study of Rattus norvegicus with 7 samples.

Results

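The genes described here are those of cholesterol synthesis, uptake and efflux in the rat meibomian gland, and they were chosen by gene symbol from a list of 31, with no threshold on measured values. Of these, 29 were found among 17246 genes read and all 29 passed the filter on low counts that left 13709 genes to test. Lbr and Sc5d were not analysed here. The smallest count of any of the 29 in any library was 217. They comprise 18 synthesis enzymes (8 of the mevalonate steps, 10 of the steps from squalene onward), 4 regulators of synthesis, 3 genes of intracellular cholesterol transport and 4 genes of efflux and its receptors.

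Cells make cholesterol from acetyl-CoA through mevalonate, isoprenoid diphosphates and squalene, which is closed to lanosterol and then trimmed to the finished sterol. Most of these enzymes are under the transcription factor SREBP-2, which is held in the endoplasmic reticulum by INSIG proteins when sterols are plentiful and is escorted by SCAP to be cut and activated when they are scarce. Excess sterol, in the form of oxysterols, activates the liver X receptors, which induce the ABC transporters that export cholesterol. The meibomian gland is the holocrine oil gland of the eyelid. Its secretion, meibum, is rich in cholesteryl esters and wax esters and covers the tear film.

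All 7 libraries came from wild-type female Sprague-Dawley rats aged 3 months. The 3 UVB libraries were from rats whose shaved upper eyelids received ultraviolet B light at 300 mJ/cm2, 5 min a day for 5 days, and the 4 control libraries are labelled as untreated; whether the controls were shaved, and how long after the last exposure the glands were taken, is not stated. The labels number the samples but do not say that each is a separate animal, so p-values measure the spread between these samples, which may be technical. Libraries are lettered within each group (control a, b, c and d; UVB a, b and c) by column, so equal letters do not pair samples, and they held 20680237 to 28784941 counts each. Whole dissected glands were sequenced, so less RNA per cell and fewer cells of a type cannot be told apart. The listed markers of the meibocyte, the secretory cell, summed to 94007 to 116463 CPM (counts brought to a like total in each library) in the controls and 89303 to 109807 CPM after UVB, and none of the listed markers was at 0 in every library. Scd alone made up most of this sum, with means of 79749 CPM in the controls and 77588 CPM after UVB. Soat1, which is also in the wider list below, is another of these markers. Of the 9 meibocyte markers tested, Fabp5 was called higher and Awat2, Plin2 and Cidea lower. Sums of other cell type markers, with controls first and UVB second, were 251 to 274 and 293 to 371 CPM for neutrophils (2 of 3 tested called higher, Elane at 0 in every library) and 66.0 to 78.5 and 78.8 to 94.6 CPM for endothelium (1 of 4 higher). Most of the neutrophil sum was S100a8 and S100a9, with means of 159 and 107 CPM in the controls and 175 and 148 CPM after UVB. Means went from 0.22 to 2.02 CPM for Csf3r, from 0.026 to 0.30 CPM for Mpo and from 0.026 to 0.013 CPM for Ltf. The sums were 2418.5 to 3756 and 2456 to 4094 CPM for fibroblasts (3 of 5 higher). Most of the fibroblast sum was Col1a1 and Col3a1, which were not called, with log2 fold changes of -0.48 and 0.019. Those called higher were Dcn, Lum and Pdgfra, with log2 fold changes of 0.95, 1.95 and 0.91. For suprabasal and duct epithelium the sums were 5333 to 6521 and 5230.2 to 7839 CPM (2 of 6 lower). For T cells the sums were 2.33 to 2.95 and 1.86 to 4.28 CPM (1 of 3 higher). The T cell gene called was Cd8a, with means of 0.24 and 1.37 CPM. Cd3e and Cd3g were not called, with log2 fold changes of -0.55 and -0.27. For skeletal muscle the sums were 2110.0 to 2868 and 1512 to 2574 CPM. Of its 5 genes 0 were called by edgeR, DESeq2 or limma-voom, and 0 had an unadjusted p under 0.05.

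Most cholesterol genes had slightly higher counts after UVB, few of them beyond the spread between libraries, and the steepest single difference was a fall in the exporter Abca1. Mvd, Fdft1 and Ebp, all enzymes of synthesis, rose by 1.28-fold to 1.45-fold, and Npc2, a lysosomal cholesterol carrier, rose by 1.38-fold. Abca1, which loads cholesterol onto apolipoproteins at the cell surface, fell to 0.601 of its control level. A gene was called where edgeR's quasi-likelihood test gave an adjusted p under 0.05 over the 13709 genes. By that rule 4 of 29 genes rose and 1 fell; over all genes tested 13.0% were called, 6.30% higher and 6.74% lower. The share of called genes among the 29 was thus near the share over all genes. The log2 fold change was above 0 for 23 of the 29, against 49.1% of all genes tested, and its median was 0.23 against -0.0058 over all genes. Every UVB library lay beyond every control for 6 of the 29 (Mvk, Mvd, Fdft1, Ebp, Npc2 and Abca1), against 26.6% of all genes tested.

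**Figure D1:**
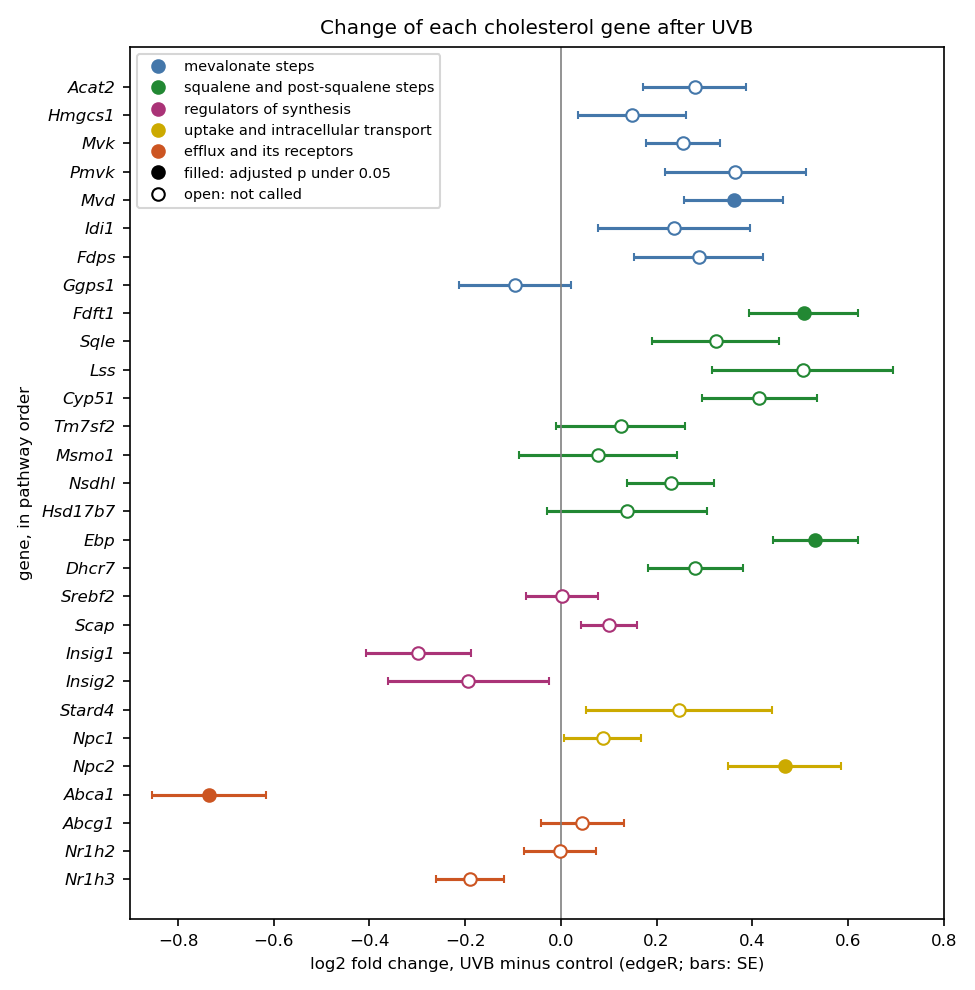
Log2 fold change (UVB minus control, edgeR) of the 29 genes in pathway order, with bars of 1 standard error, coloured by role; filled points passed an adjusted p of 0.05 and open points did not. Of the 18 synthesis enzymes 17 lie to the right of 0 but 3 are filled, and Abca1 lies farthest from 0, at -0.74.

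RefSeq gave a promoter window, from 250 bases before to 50 after the gene start on assembly GRCr8, for 24 of the 29 genes; Pmvk, Fdft1, Sqle, Stard4 and Abcg1 had no entry. Of the 5 called genes, 4 had one, and the 250 bases before their starts are shown because these genes passed the threshold. Capitals mark CCAAT or its reverse complement ATTGG, the box bound by NF-Y, a factor known to act beside SREBP on sterol genes. Sequences run 5′ to 3′ on the gene's strand, and the deposited values themselves were made on build rn7, per the submitters' processing notes.
Mvd (chr19:67414975-67415224, minus strand): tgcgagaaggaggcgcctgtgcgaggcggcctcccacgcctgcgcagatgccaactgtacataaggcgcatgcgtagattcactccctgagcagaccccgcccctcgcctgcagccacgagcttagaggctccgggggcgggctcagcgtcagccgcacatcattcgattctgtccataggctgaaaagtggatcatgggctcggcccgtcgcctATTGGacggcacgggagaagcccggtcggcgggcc
Ebp (chrX:16971212-16971461, plus strand): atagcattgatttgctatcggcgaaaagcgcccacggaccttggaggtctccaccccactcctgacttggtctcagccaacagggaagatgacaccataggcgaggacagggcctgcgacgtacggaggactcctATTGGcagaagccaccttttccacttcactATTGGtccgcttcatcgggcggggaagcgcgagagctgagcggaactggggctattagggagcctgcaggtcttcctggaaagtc
Npc2 (chr6:110149246-110149495, minus strand): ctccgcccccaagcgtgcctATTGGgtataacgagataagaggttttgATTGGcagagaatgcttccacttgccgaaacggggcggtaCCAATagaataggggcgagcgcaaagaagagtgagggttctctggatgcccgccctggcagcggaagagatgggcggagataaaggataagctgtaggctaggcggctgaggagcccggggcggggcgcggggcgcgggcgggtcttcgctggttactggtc
Abca1 (chr5:72596474-72596723, minus strand): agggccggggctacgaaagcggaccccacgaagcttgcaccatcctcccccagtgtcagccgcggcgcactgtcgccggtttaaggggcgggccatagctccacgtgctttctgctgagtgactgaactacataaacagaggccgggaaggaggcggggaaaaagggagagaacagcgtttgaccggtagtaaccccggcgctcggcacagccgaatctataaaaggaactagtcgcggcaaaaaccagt
The stretch before Ebp holds 2 such boxes, 115 and 85 bases before the start, that before Npc2 holds 3, that before Mvd holds 1, and that before Abca1 holds none. Within the full 300-base windows, 16 of 24 (66.7%) held CCAAT on either strand, against 37.5% of 33469 rat promoters, and 11 of 24 held 2 or more, against 11.2%. These 33469 promoters were not limited to the 13709 genes tested here, so they may be unlike the 24 in kind. By role, CCAAT occurred in 6 of 7 windows of mevalonate genes, 6 of 8 of post-squalene genes, 3 of 4 of regulators, 1 of 2 of transport genes and 0 of 3 of efflux genes. The Sp1 box GGGCGG occurred on either strand in 18 of 24 windows (75.0%), against 33.1% of all. The sterol regulatory element, searched as TCACNCCAC on both strands, occurred in 0 of 24 windows and in 1.12% of all. With so few matches in any promoter, 0 of 24 cannot tell whether these windows lack the element. Variants of these letters were not searched. A match is a run of letters and not a measured binding site, and enzymes that were not called, such as Hmgcs1 with 2 boxes, held the CCAAT box as well.

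Transcript levels are compared between genes as TPM, counts corrected for transcript length and scaled by the authors. In the controls the 29 genes spanned a 276-fold range of TPM. Hmgcs1, which makes HMG-CoA, stood highest at 2174 ± 267 TPM (SD, n = 4). It was followed by Msmo1, a sterol C4-methyl oxidase, at 1427 ± 264 TPM (SD, n = 4), by Fdps, which makes farnesyl diphosphate, at 1207 ± 198 TPM (SD, n = 4), and by Dhcr7, which reduces 7-dehydrocholesterol, at 1121 ± 102 TPM (SD, n = 4). Next came Acat2, which makes acetoacetyl-CoA, with 539.8 ± 61.3 TPM (SD, n = 4) and the sterol-sensing retention factor Insig1 with 399 ± 33.6 TPM (SD, n = 4). In the middle of the order stood Cyp51, Ebp, Fdft1, Stard4, Mvd, Lss, Sqle, Tm7sf2, Abcg1, Idi1, Pmvk and Nsdhl, from 367 down to 108 TPM. The lower part ran from Srebf2 at 96.4 TPM through Scap, Npc2, Mvk, Nr1h2, Nr1h3, Hsd17b7, Abca1 and Npc1 to Insig2 at 26.8 TPM. Ggps1, which makes the geranylgeranyl diphosphate used to anchor proteins rather than sterol, was lowest at 7.89 ± 0.930 TPM (SD, n = 4). Among the 28 neighbouring pairs in this order, the control ranges overlapped in 21, so that most neighbours did not differ beyond their spread. The 7 pairs without overlap were Hmgcs1 and Msmo1, Dhcr7 and Acat2, Acat2 and Insig1, Srebf2 and Scap, Mvk and Nr1h2, Npc1 and Insig2, and Insig2 and Ggps1.

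**Figure D2:**
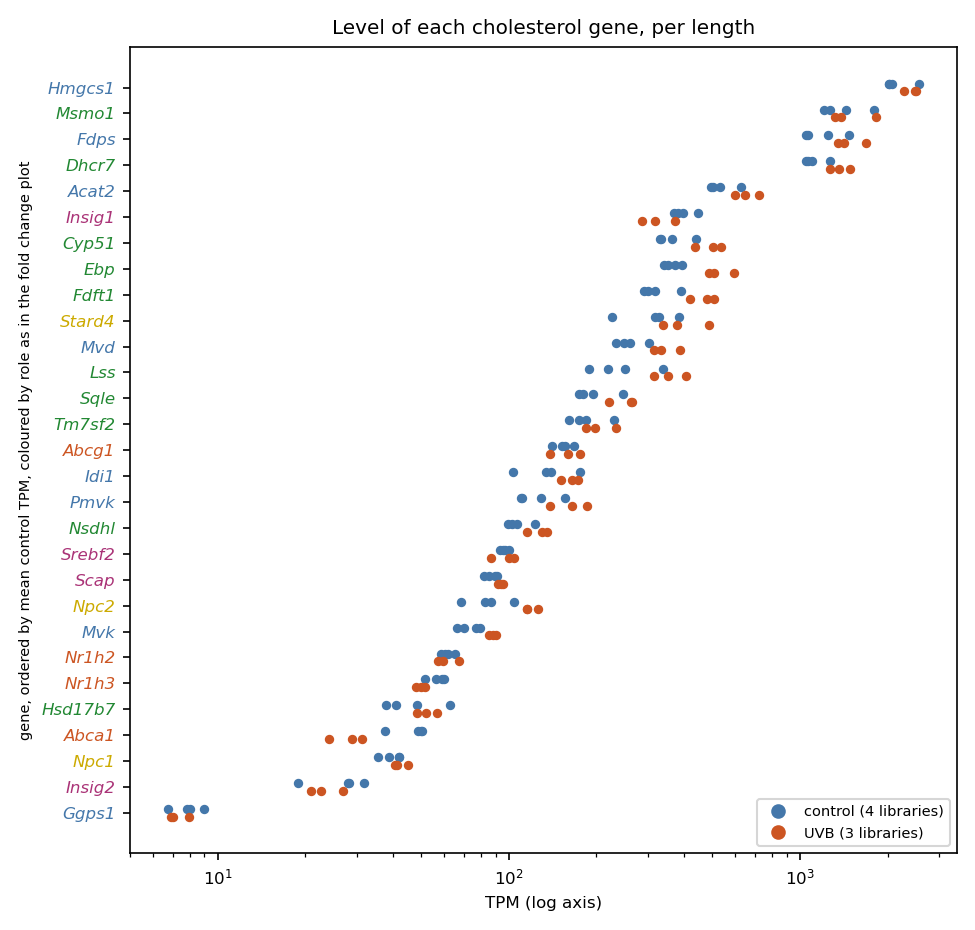
TPM on a log axis for each of the 29 genes, ordered by control mean, with 1 point for each control and UVB library; gene names are coloured by role as in the plot of fold changes. The synthesis enzymes fill most of the top of the order, and the UVB points of Abca1 sit below its controls.

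Of the 8 mevalonate genes 1 was called, Mvd, and 7 had a log2 fold change above 0 (median 0.27). Mvd (NCBI gene 81726), mevalonate diphosphate decarboxylase, which makes isopentenyl diphosphate, measured 414, 327, 351 and 337 CPM in the controls (a to d) and 415, 520.2 and 441 CPM in the UVB libraries (a to c). Control a and UVB a were almost level, and the lowest UVB library exceeded the highest control by less than 1 CPM. Means were 357 ± 39.4 CPM (SD, n = 4) for the controls against 459 ± 54.7 CPM (SD, n = 3) for UVB, and the log2 fold change was 0.36 ± 0.10 (SE) with an adjusted p of 0.0487 in edgeR. The call held under 10 of 18 alternative settings. Leaving out control b, c or d, or UVB b or c, ended it, and there adjusted p-values ran from 0.0848 to 0.141; limma-voom, the fit without robust estimation and TPM without a filter also missed the threshold.

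Mvk, mevalonate kinase, the first of the phosphorylating steps, measured 80.9, 77.8, 69.2 and 67.1 CPM in the controls (a to d) and 84.3, 91.7 and 87.9 CPM in the UVB libraries (a to c). Its groups did not overlap, but the log2 fold change of 0.25 ± 0.077 (SE) gave an adjusted p of 0.0591 in edgeR. The next kinase, Pmvk, had a log2 fold change of 0.36 ± 0.15 (SE) and an adjusted p of 0.140. At the entry of the pathway, log2 fold changes were 0.28 (adjusted p 0.118) for Acat2 and 0.15 (0.415) for Hmgcs1, the most abundant of the enzymes measured here. The isomerase Idi1 and the prenyl transferase Fdps had log2 fold changes of 0.24 (adjusted p 0.362) and 0.29 (0.192). Ggps1, on the branch that leaves the sterol route, was the single synthesis gene with a log2 fold change below 0, at -0.10 (adjusted p 0.633).

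From squalene onward 2 of 10 genes were called, Fdft1 and Ebp, and all 10 had a log2 fold change above 0 (median 0.30). Ebp (NCBI gene 117278) encodes the sterol isomerase that moves the double bond of the B ring. It measured 238, 204, 217 and 212 CPM in the controls (a to d) and 285, 359 and 301 CPM in the UVB libraries (a to c). Every UVB library lay above every control, and the controls lay close together. Means were 218 ± 14.7 CPM (SD, n = 4) for the controls against 315 ± 38.8 CPM (SD, n = 3) for UVB, 1.45-fold, with a log2 fold change of 0.53 ± 0.089 (SE) and an adjusted p of 0.00781 in edgeR. Ebp was the single synthesis gene called under all 18 alternatives, between 0.43 and 0.60 on the log2 scale.

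Fdft1 (NCBI gene 29580), squalene synthase, commits farnesyl diphosphate to sterols and measured 809, 654, 602 and 601 CPM in the controls (a to d) and 1008, 858 and 977 CPM in the UVB libraries (a to c). Control a was the highest control, and its distance to the lowest UVB library was small. The control mean of 667 ± 98.3 CPM (SD, n = 4) rose to 947 ± 79.2 CPM (SD, n = 3), with a log2 fold change of 0.51 ± 0.11 (SE) and an adjusted p of 0.0218 in edgeR. The call held under 13 of 18 alternatives; leaving out control b, c or d, UVB a or UVB c gave adjusted p-values from 0.0526 to 0.0652. In the GRCr8 annotation Fdft1 overlaps another gene, as do Acat2, Hmgcs1, Idi1, Fdps, Srebf2, Insig1, Npc1 and Nr1h3, and the handling of strand in the counts is not given in the sources used here.

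The other sterol enzymes did not pass the test. Cyp51, the lanosterol demethylase, measured 834, 619.7, 666 and 629.7 CPM in the controls (a to d) and 799, 1012 and 937 CPM in the UVB libraries (a to c). UVB a lay below control a, so the groups overlapped. Its log2 fold change of 0.41 ± 0.12 (SE) had an adjusted p of 0.0515 in edgeR, and 9 of 18 alternatives called it, DESeq2 among them (0.00791). Lss, which closes squalene epoxide to lanosterol, had a log2 fold change of 0.51 ± 0.19 (SE), the same size as that of Fdft1, with a wider error and an adjusted p of 0.119. Sqle, the squalene epoxidase, had a log2 fold change of 0.32 (adjusted p 0.141), Dhcr7 one of 0.28 (0.0948) and the C4-demethylating dehydrogenase Nsdhl one of 0.23 (0.125). The C14 reductase Tm7sf2 at 0.12 (adjusted p 0.579), the 3-ketosteroid reductase Hsd17b7 at 0.14 (0.629) and Msmo1 at 0.078 (0.796) had the log2 fold changes nearest to 0 among the sterol steps. With 1 library left out, Tm7sf2 was lowest without UVB b, at 0.011, and Hsd17b7 without control b, at 0.044; both were highest without control a, at 0.25 and 0.31. Cyp51 and Hsd17b7, with Acat2, Scap, Insig1 and Npc1, had fractional counts in every library, which estimators give where reads match more than 1 sequence, so their levels are less certain. Mvd had a fractional count in 1 library, and the other 22 genes had whole counts throughout.

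**Figure D3:**
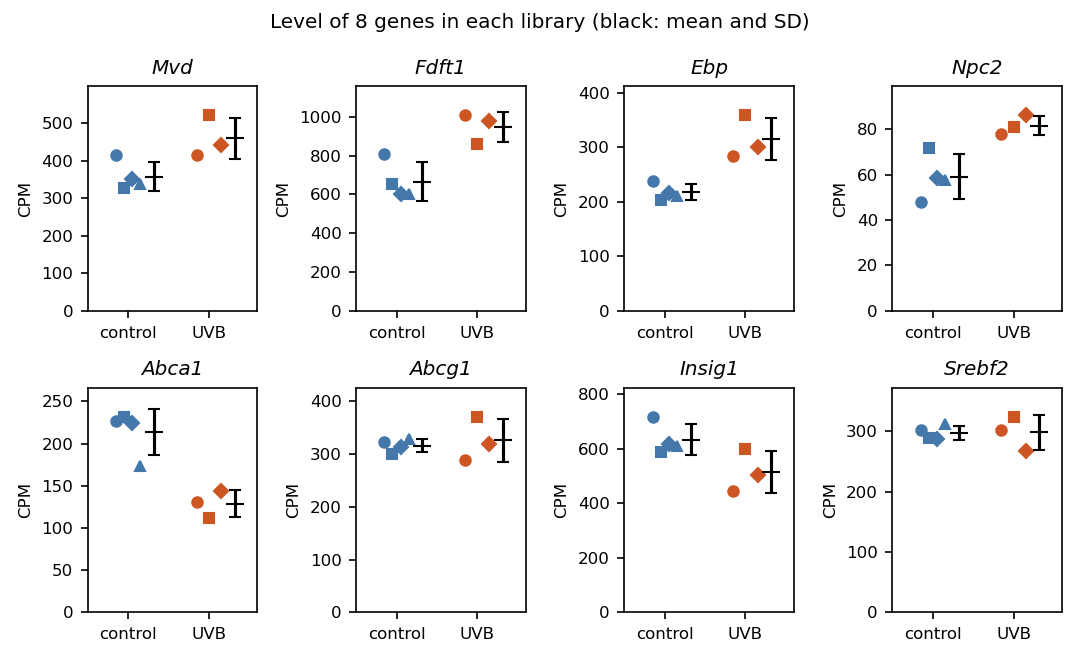
CPM of Mvd, Fdft1, Ebp, Npc2, Abca1, Abcg1, Insig1 and Srebf2 in each library, with the group mean and SD in black; circles, squares, diamonds and the triangle stand for libraries a, b, c and d of each group. Groups are apart for Fdft1, Ebp, Npc2 and Abca1, nearly touch for Mvd, and overlap for Abcg1, Insig1 and Srebf2.

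One control stood apart for these enzymes. Control a was the highest control for 16 of the 18 synthesis enzymes, against 31.4% of all genes tested, and UVB a was the lowest UVB library for 12 of 18, against 33.0%. Relative to the control mean, the median synthesis enzyme stood at a log2 value of 0.28 in control a, -0.13 in b, -0.046 in c and -0.12 in d, and at 0.14, 0.39 and 0.25 in UVB a to c. Control a thus lay above UVB a and UVB c. Summed TPM of the 18 enzymes was 10516 in control a, 8043.5, 8687 and 8447 in control b to d, and 10225, 11705 and 10152 in UVB a to c, which again placed control a between UVB b and the other UVB libraries. The meibocyte marker sum, most of which was Scd on average, was also highest in control a, at 116463 CPM. The part of gland content in these values was not tested.

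The number of genes called moved with single libraries. Without control a, 13 of the 29 were called, 12 of them higher (Acat2, Mvk, Pmvk, Mvd, Fdps, Fdft1, Sqle, Lss, Cyp51, Nsdhl, Ebp and Npc2), and the median of the synthesis enzymes was 0.38. Without control c, without control d or without UVB c, Ebp and Abca1 alone were called. Without UVB b the synthesis median was 0.20, and Insig1 joined Abca1 among the lower genes. Markers of dividing cells moved with the groups: 6 of 8 cell cycle genes were called higher, with a summed level of 232 to 279 CPM in the controls and 352 to 492 CPM after UVB. The basal epithelial markers summed to 9321 to 11702 CPM and 11818 to 12636 CPM. Of the 4 tested, Krt14 and Itgb4 were called higher. Krt5 and Col17a1 were not called, with log2 fold changes of -0.021 and -0.18. The part of dividing or basal cells in the levels of the sterol enzymes was not tested.

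**Figure D4:**
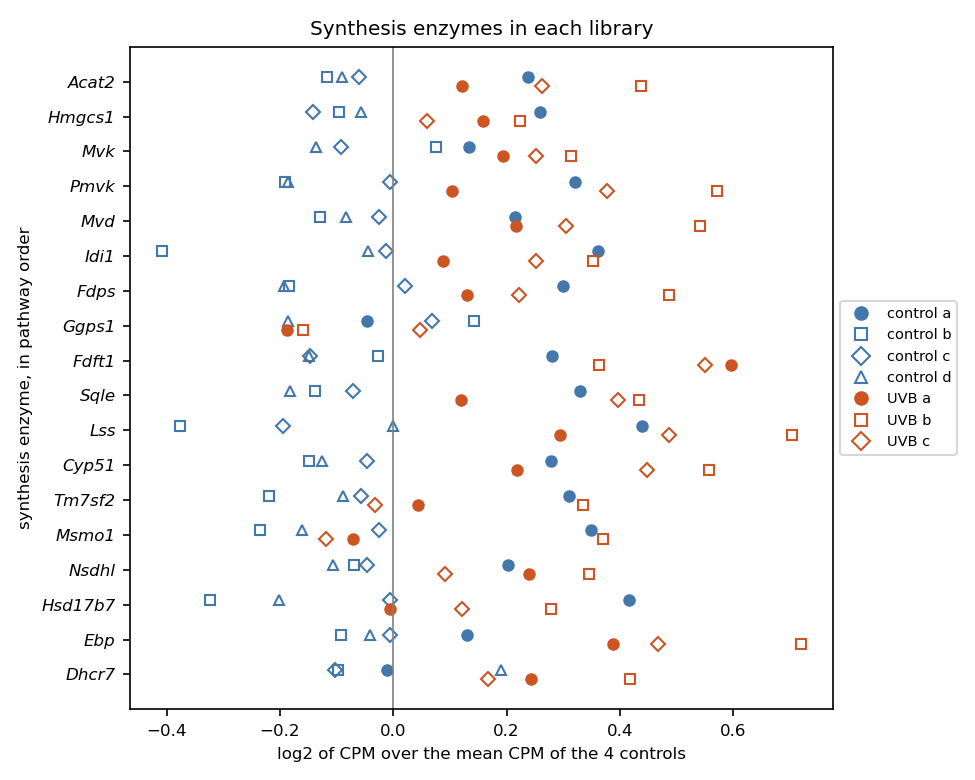
Log2 of CPM over the mean CPM of the 4 controls, for each of the 18 synthesis enzymes in pathway order, with 1 point for each library (blue controls, orange UVB; filled circles are control a and UVB a). Control a is the rightmost control for 16 of the 18 and often lies among the UVB points, while the other controls mostly lie left of 0.

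None of the 4 regulators of synthesis was called by edgeR, DESeq2 or limma-voom, 1 (Insig1) had an unadjusted p under 0.05, and their median log2 fold change was -0.096 (-0.032 without control d). Srebf2, which encodes the SREBP-2 precursor, measured 302, 288, 287 and 312 CPM in the controls (a to d) and 303, 324 and 267 CPM in the UVB libraries (a to c). The groups overlapped fully, and the log2 fold change was 0.0025 ± 0.076 (SE; adjusted p 0.988 in edgeR). Scap, the escort of SREBP, measured 217, 223, 233 and 235 CPM in the controls (a to d) and 234, 252 and 244 CPM in the UVB libraries (a to c), a log2 difference of 0.10 ± 0.059 (SE) with an adjusted p of 0.284.

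Insig1, the retention factor that is itself an SREBP target, measured 717, 590.0, 617 and 610.3 CPM in the controls (a to d) and 445, 599 and 502 CPM in the UVB libraries (a to c). Control a was highest, UVB a and UVB c lay below every control, and UVB b lay among the controls. Its log2 fold change was -0.30 ± 0.11 (SE) with an adjusted p of 0.106 in edgeR, on the other side of 0 from 17 of the 18 enzymes. It passed the threshold under 1 of 18 alternatives, without UVB b (-0.42, adjusted p 0.0417). Insig2, its paralogue with a similar retention role, measured 11.4, 17.0, 16.5 and 19.2 CPM in the controls (a to d) and 13.3, 12.8 and 16.0 CPM in the UVB libraries (a to c), with a log2 fold change of -0.19 ± 0.17 (SE) and an adjusted p of 0.480.

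Among the 3 transport genes Npc2 was called higher, and all 3 had a log2 fold change above 0. Npc2 (NCBI gene 286898), the soluble lysosomal protein that hands cholesterol to NPC1, measured 47.9, 71.9, 58.7 and 57.4 CPM in the controls (a to d) and 77.6, 80.9 and 86.1 CPM in the UVB libraries (a to c). All UVB libraries lay above the controls, with control b nearest to them. Means were 59.0 ± 9.86 CPM (SD, n = 4) for the controls against 81.6 ± 4.25 CPM (SD, n = 3) for UVB, with a log2 fold change of 0.47 ± 0.12 (SE) and an adjusted p of 0.0327 in edgeR. Its call held under 11 of 18 alternatives. Leaving out control c or d, or any of the 3 UVB libraries, gave adjusted p-values from 0.0614 to 0.0898, and scaling by library size alone or TPM without a filter also ended the call. Macrophages, which are rich in lysosomes, are marked by a list of which 4 of 9 tested genes were called higher (Cd163, Mrc1, C1qb and C1qc). The others were not called and lay on both sides of 0. Their log2 fold changes were 0.85 for C1qa, 0.11 for Adgre1, -0.0093 for Csf1r, -0.41 for Cd68 and -0.77 for Lyz2. The macrophage markers summed to 144 to 387 CPM in the controls and 173 to 302 CPM after UVB. Lyz2, which was not called, made up the largest part of this sum on average, with means of 120 and 70.7 CPM. Means of the 4 called genes were lower and went from 2.57 to 29.6 CPM for Cd163 and from 6.86 to 23.2 CPM for Mrc1. For C1qb they went from 9.62 to 23.6 CPM and for C1qc from 13.2 to 25.1 CPM. The sum thus does not follow the called genes alone. Control b was highest and control a lowest of the controls for both the sum and Npc2. Among the UVB libraries both were highest in UVB c, but the sum was lowest in UVB b and Npc2 in UVB a. UVB b had more Npc2 than control b (80.9 against 71.9 CPM) at a lower sum (173 against 387 CPM). The part of macrophage content was not tested.

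Npc1, the lysosomal membrane partner of NPC2, measured 124, 134, 109.9 and 134 CPM in the controls (a to d) and 128, 130.0 and 142 CPM in the UVB libraries (a to c). The groups overlapped, and the log2 fold change was 0.087 ± 0.080 (SE) (adjusted p 0.504 in edgeR). Stard4, a cytosolic sterol carrier, measured 596, 478, 439 and 359.7 CPM in the controls (a to d) and 449, 697 and 519 CPM in the UVB libraries (a to c). It varied as much within as between groups, with a log2 fold change of 0.25 ± 0.19 (SE) and an adjusted p of 0.439, and ran from 0.053 without UVB b to 0.39 without control a.

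Of the 4 genes of efflux and its receptors, Abca1 was called lower and none higher, and their median log2 fold change was -0.096 (-0.061 without UVB a, -0.15 without UVB b). Abca1 (NCBI gene 313210) measured 226, 232, 225 and 174 CPM in the controls (a to d) and 131, 112 and 144 CPM in the UVB libraries (a to c). Every UVB library lay below every control, control d being the lowest control. Means were 214 ± 27.1 CPM (SD, n = 4) for the controls against 129 ± 16.1 CPM (SD, n = 3) for UVB, with a log2 fold change of -0.74 ± 0.12 (SE) and an adjusted p of 0.00752 in edgeR. The call held under all 18 alternatives, with log2 values between -0.82 and -0.64. Abcg1, which passes cholesterol to formed lipoprotein particles, measured 322, 299, 313 and 329 CPM in the controls (a to d) and 289, 370.1 and 318 CPM in the UVB libraries (a to c). Its groups overlapped, with a log2 fold change of 0.045 ± 0.086 (SE) (adjusted p 0.767).

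The liver X receptors induce both transporters. Nr1h3, LXR alpha, measured 47.6, 51.6, 53.1 and 55.6 CPM in the controls (a to d) and 43.2, 47.7 and 45.7 CPM in the UVB libraries (a to c), with a log2 fold change of -0.19 ± 0.071 (SE) and an adjusted p of 0.110 in edgeR. Nr1h2, LXR beta, measured 73.4, 71.2, 74.8 and 69.0 CPM in the controls (a to d) and 68.5, 80.6 and 67.0 CPM in the UVB libraries (a to c). It had a log2 fold change of -0.0023 ± 0.075 (SE) and an adjusted p of 0.989. Adipocyte markers summed to 127 to 179 CPM in the controls and 114 to 122 CPM after UVB, with Plin4 called lower among those tested and none at 0 in every library, and melanocyte markers summed to 101 to 183 CPM and 77.1 to 89.7 CPM. Both sums were lower in every UVB library than in every control, as Abca1 was. Among the controls, melanocyte markers were highest in control d, where Abca1 was lowest. Adipocyte markers were lowest in control b, where Abca1 was highest. Among UVB libraries both sums and Abca1 were highest in UVB c, but the sums were lowest in UVB a and Abca1 in UVB b. Most of the adipocyte sum was Plin4, and means of Adipoq, Plin1 and Lep were also lower. Cfd was near level (33.7 CPM in controls, 33.2 CPM after UVB) and the Retn mean higher. The part of either cell type in the fall of Abca1 was not tested.

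Ratios between paired members were tested over libraries by an exact two-sided permutation test, with 35 splits and a smallest possible p of 0.0286. The TPM ratio of Abca1 to Abcg1 was 0.312, 0.357, 0.300 and 0.246 in control a to d and 0.210, 0.137 and 0.196 in UVB a to c. Every UVB ratio was below every control ratio, and the mean went from 0.303 ± 0.0455 (SD, n = 4) to 0.181 ± 0.0388 (SD, n = 3), a log2 difference of -0.76. The exact p was the smallest possible, 0.0286, and was 0.0857 after adjustment over the 3 ratios tested, which misses the threshold. With 35 splits and 3 ratios, a single ratio at the smallest p cannot pass the threshold, so the adjusted value cannot decide this ratio. The ratio of Nr1h3 to Nr1h2 was 0.925 ± 0.0817 (SD, n = 4) for the controls against 0.814 ± 0.0570 (SD, n = 3) for UVB (log2 difference -0.18, exact permutation p = 0.114, adjusted 0.171). For Insig1 to Insig2 it was 15.7 ± 5.38 (SD, n = 4) and 14.1 ± 3.23 (SD, n = 3), with a log2 difference of -0.13 (exact permutation p = 0.686, adjusted 0.686). That difference rested on control a, whose ratio was 23.7, and was 0.086 without it.

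A wider list of 79 genes around the pathway was read for comparison. Of these 73 were found and 71 tested, 4 were called higher and 6 lower, and the median log2 fold change was 0.033, so the list as a whole lay near the 13.0% called over all genes. Among 6 genes of lipoprotein uptake 2 rose and 1 fell. Scarb1, the receptor that takes up cholesteryl esters from HDL, rose, with 357 ± 45.5 CPM (SD, n = 4) in controls against 475 ± 24.6 CPM (SD, n = 3) for UVB (log2 fold change 0.41 ± 0.10 (SE), adjusted p 0.0248 in edgeR). Lrp8, a receptor of low abundance in the gland, rose, with 1.04 ± 0.151 CPM (SD, n = 4) in controls against 2.47 ± 0.616 CPM (SD, n = 3) for UVB (log2 fold change 1.24 ± 0.25 (SE), adjusted p 0.0141). Lrp8 could be tested under 15 of 18 alternatives and was called in all 15, with a log2 fold change of 0.55 on log2(TPM + 1) without a filter, where the pseudocount shrinks changes of low genes, and of 1.02 to 1.38 with 1 library left out. Vldlr, the very low density lipoprotein receptor, fell, with 47.8 ± 4.23 CPM (SD, n = 4) in controls against 28.4 ± 5.87 CPM (SD, n = 3) for UVB (log2 fold change -0.75 ± 0.13 (SE), adjusted p 0.00974). Vldlr was called under all 18 alternatives.

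Of 15 further genes of intracellular sterol transport 2 fell and none rose. Gramd1c, of the family that moves sterol from the plasma membrane to the endoplasmic reticulum, fell, with 28.1 ± 2.55 CPM (SD, n = 4) in controls against 16.8 ± 3.16 CPM (SD, n = 3) for UVB (log2 fold change -0.74 ± 0.13 (SE), adjusted p 0.00871 in edgeR) and was called under all 18 alternatives. Osbpl5, of the oxysterol-binding protein family, fell, with a log2 fold change of -0.30 ± 0.069 (SE) (adjusted p 0.0229). In the group of 10 genes that hydroxylate, sulfate or otherwise modify sterols, Cyp27a1, which makes 27-hydroxycholesterol, fell, with 58.0 ± 9.31 CPM (SD, n = 4) in controls against 36.9 ± 5.69 CPM (SD, n = 3) for UVB (log2 fold change -0.65 ± 0.15 (SE), adjusted p 0.0254). Ebpl, a relative of Ebp, rose in the same group, with 43.0 ± 4.47 CPM (SD, n = 4) in controls against 60.1 ± 9.44 CPM (SD, n = 3) for UVB (log2 fold change 0.48 ± 0.11 (SE), adjusted p 0.0265).

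The remaining groups held few calls. Abca2, an ABC transporter of intracellular membranes, was the 1 gene called of 10 efflux partners and liver X receptor targets tested, with a log2 fold change of -0.24 ± 0.064 (SE) (adjusted p 0.0365 in edgeR). Syvn1, a ubiquitin ligase of the endoplasmic reticulum, was the 1 called of 13 genes of SREBP processing and sterol-dependent degradation, with a log2 fold change of 0.21 ± 0.053 (SE) (adjusted p 0.0303). Srebf1, the SREBP of fatty acid synthesis and a liver X receptor target, had a log2 fold change of 0.033 (adjusted p 0.818) and fractional counts in every library. Pggt1b, which attaches geranylgeranyl groups to proteins, was the 1 called of 9 genes of the isoprenoid branches, with a log2 fold change of -0.33 ± 0.091 (SE) (adjusted p 0.0417), and its call was lost under 9 of 18 alternatives. None of 6 genes of esterification and ester hydrolysis was called by edgeR or limma-voom; the lysosomal ester hydrolase Lipa, 1 of 6 with an unadjusted p under 0.05, was called by DESeq2. Soat1, which esterifies cholesterol for storage, had a log2 fold change of 0.10 (adjusted p 0.622). Of the 2 other synthesis genes tested 0 were called by edgeR, DESeq2 or limma-voom, and 0 had an unadjusted p under 0.05. Leaving out 1 library ended several of these calls: that of Scarb1 without control b or c or UVB a or b, that of Ebpl without control c or d or UVB b, that of Osbpl5 without control b, c or d or UVB a or b, that of Syvn1 without any library but control a, that of Abca2 without any but control a or UVB b, that of Cyp27a1 likewise, and that of Pggt1b without any but control b or UVB a.

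**Figure D5:**
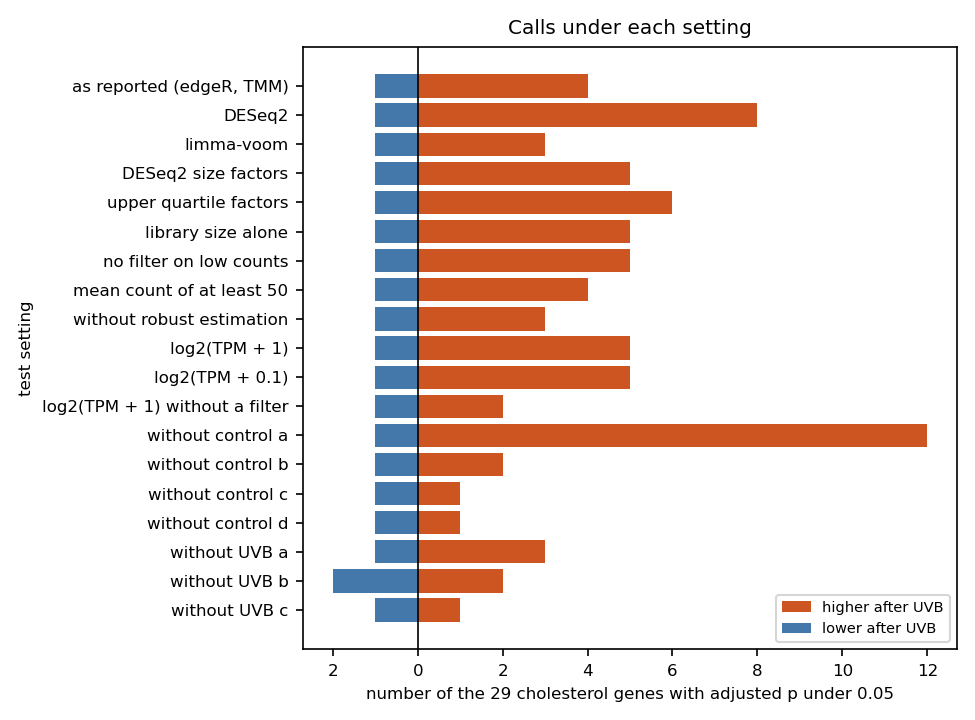
Number of the 29 genes called (adjusted p under 0.05) in the fit reported here and under each of the 18 alternatives, split into higher and lower. The count runs from 2, without control c, without control d or without UVB c, to 13 without control a.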

How the data were processed

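Meibomian gland RNA of 7 samples was sequenced. Expected counts per gene were deposited by the authors in 1 table, with 12.5% of values not whole, and TPM values in another, where a library holds from 82.0% to 84.1% of the whole TPM scale. The submitters' processing notes name FastQC, Trimmomatic, DRAGEN, Picard and build rn7, without versions or roles. Commas inside gene names shifted 2281 of 17251 rows in each deposited table, so some cells of the first columns hold other text, and the 7 values were read from the right end of each row. No value stood in 5 rows of each. Column names give the group of a library and not its number.

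Expected counts were rounded and tested with edgeR 4.0.16 in R 4.3.3 (quasi-likelihood, robust, TMM, filterByExpr by group), with Benjamini-Hochberg adjustment over 13709 genes and a threshold of 0.05. A standard error is the absolute log2 fold change over the square root of F. CPM values use TMM factors. Ratios of TPM were tested by exact permutation over libraries. The fits were first tested on simulated counts. Alternatives tried were limma-voom (limma 3.58.1), DESeq2 1.42.0, scaling by library size alone, by upper quartiles or by DESeq2 size factors, no filter, a mean count of at least 50, no robust estimation, log2(TPM + 1) and log2(TPM + 0.1) with a mean TPM of at least 1, log2(TPM + 1) without a filter, and leaving out each library.

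The members, the gene lists and the tests were chosen with earlier results of these data known. Every member is named. Values in every library are given for each called gene, for the member with the smallest p of each role and for the regulators, carriers, transporters and receptors. Of the wider list, called genes are named, with Soat1 and Srebf1; 5 listed genes are not reported here. Protein sequences were not used here. Intervals from counts would cover counting error only and none is given.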

Additional observations from a re-analysis of the deposited data

Results flagged for a closer look

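In groups of 4, a library was marked where its distance to the nearest other library, as a share of the group's range, exceeded Dixon's critical value for 4 samples. Over 44 sets of control values examined, 3 were marked, and chance marks about 1 set in 20. Acat2, the first enzyme of the mevalonate route, was high in control a, at 744 CPM, with control b to d at 581 to 605 CPM, a share of 0.856. Abca1, the cholesterol exporter, was low in control d, at 174 CPM against 225 to 232 CPM, a share of 0.880; its UVB libraries lay lower still. Syvn1, the ubiquitin ligase of the endoplasmic reticulum, was high in control a, at 90.1 CPM against 86.5 to 87.0 CPM, a share of 0.869.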

How the results depend on the processing

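Of 522 values of single members under an alternative, 465 kept their direction and their side of the threshold, 20 of 3 members (Mvd, Fdft1 and Npc2) lost the call, 22 of 10 members gained it and 15 of 4 members changed sign; Ebp and Abca1 kept their calls under all 18 alternatives. Leaving out 1 library at a time gave 851 to 1898 called genes in all (421 to 927 higher, 430 to 971 lower), 1 to 12 members called higher and 1 to 2 lower, 1 to 7 and 2 to 6 of the wider list, with medians from -0.11 to -0.032 for regulators, -0.15 to -0.061 for efflux genes and 0.11 to 0.38 for transport genes. The cause of the shifts was not tested. DESeq2 called 8 members and 7 genes of the wider list higher. On log2(TPM + 1) without a filter, more genes were tested and 1137 were called, 521 of them lower, with 2 members higher. All values that changed sign belonged to genes that were not called. Srebf2 stood at -0.0012 with limma-voom and -0.0026 with a mean count of at least 50, and ran from -0.058 to 0.076 with 1 library left out (-0.013 without control b, -0.015 without control c, -0.0084 without UVB a). Nr1h2 stood at 0.0028 with DESeq2 and with its size factors and 0.00080 with no filter, and ran from -0.087 to 0.049 (0.0085 without control a, 0.015 without control c, 0.033 without UVB a). Ranges of the same kind were -0.090 to 0.22 for Msmo1, -0.052 to 0.12 for Abcg1, -0.011 to 0.073 for Srebf1 (-0.0038 without control b) and -0.31 to 0.086 for the ratio of Insig1 to Insig2. No paired analysis was possible because the labels name no pairs of control and UVB samples. In addition, no column name holds a replicate number that matches the labels. Each member had at least 217 counts in every library.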
